A study of Arabidopsis thaliana with 18 samples.

Results

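The tau and phi glutathione S-transferases (GSTs) of Arabidopsis thaliana were followed across roots of lpcat and wild type (WT, Col-0) seedlings on 3 media. The members were taken by name, GSTU1 to GSTU28 for the tau class and GSTF2, GSTF3 and GSTF6 to GSTF14 for the phi class, which gave 39 genes, 28 of the tau and 11 of the phi class. Of these, 37 had a row among the 35197 rows of the deposited table, and all 37 were among the 23760 genes with enough reads to be tested. GSTU1 (AT2G29490) and GSTU28 (AT1G53680) were not analysed here, since no row was matched to them.

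The lpcat mutant carries disruptions of LPCAT1 and LPCAT2, the acyltransferases that turn lysophosphatidylcholine (LPC) back into phosphatidylcholine (PC). Roots were collected 5 days after germination from 6 groups of 3 libraries each. These were lpcat on lysoPAF with ONO, WT on lysoPAF with ONO, lpcat on lysoPAF, WT on lysoPAF, lpcat on control medium and WT on control medium. LysoPAF, an ether-linked structural analog of LPC, was given at 20 µg/mL, and ONO (ONO-RS-082), an inhibitor of phospholipase A2, was always given together with it. The labels state 50 µM of ONO, the study's text the same figure in µg/mL, and no group received ONO alone, so ONO was compared only on top of lysoPAF. Whether replicates were grown apart is not stated in the sources used here, so p-values measure the spread between these libraries, which may be technical. The mutant is a single double-mutant line, and whole roots were sampled, so fewer cells of a type and less RNA per cell cannot be told apart.

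GSTs join the tripeptide glutathione to electrophilic compounds, and vacuolar ABCC transporters then carry the conjugates into the vacuole. The tau and phi classes are the large plant-specific ones, and many of their genes are known to be induced by xenobiotics, oxylipins or salicylic acid. TGA factors, which bind the TGACG site of the as-1 element, and WRKY factors, which bind the TTGAC core of the W-box, are the regulators most often tied to such genes.

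Values are normalized counts, meaning reads divided by the size factor of the library. Libraries held 8681898 to 16767002 reads in genes. Fold changes are differences of log2(normalized count + 1), which understates the change of genes with few reads, and a member is called when limma's adjusted p over all 23760 genes is under 0.05. LPCAT1 was lower in all 9 lpcat libraries (47.3 to 72.1 normalized counts) than in all 9 WT libraries (247 to 342), while LPCAT2 was higher in lpcat on all 3 media. Replicate 2 of lpcat on control medium stood apart. It lay at 32.5 on the first principal component of the most variable tested genes, against -31.2 and -34.4 for the other lpcat control libraries. Its shoot photosynthesis markers summed to 766 normalized counts, against 4468 and 4945. That sum varied in other groups too. It was 1790, 1846 and 4977 in WT on control medium, 885 to 2791 in lpcat on lysoPAF and 1155 to 3208 in lpcat with ONO. All 5 root markers had at least 495 normalized counts in every library, and 2 of them, CASP1 and COBL9, were called between groups, as given beside the results. CASP1 was also higher on lysoPAF than on control medium in WT (0.55 on the log2 scale, limma adjusted p = 0.00229), and its part in the lysoPAF results was not tested. Because a shared fit was used, results are also given without this library, an alternative chosen after it had been seen.

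Levels differed widely between members. Per kilobase of transcript, GSTF9 was the highest at 9728 normalized counts per kb as a mean over all libraries, 22.5% of the sum over members. GSTF10 followed with 6758 and GSTU19, a main contributor to GST activity on model substrates, with 4794 normalized counts per kb. GSTF2 (3922), GSTF8 (3010), GSTF7 (2618) and GSTU13 (2429) completed the top 7 on the same scale. The place of GSTF7 came with ONO: it was at rank 5 in lpcat (4116 normalized counts per kb) and rank 2 in WT (7486) on lysoPAF with ONO, and at rank 8 in WT on lysoPAF (1222) and on control medium (1098). At the other end, GSTF12, known as TRANSPARENT TESTA 19 and needed to deposit anthocyanins, stayed at or under 4.98 normalized counts in every library, and GSTU21 at or under 2.81. GSTU15 was listed at 0 in 14 libraries and reached 1.97 normalized counts in lpcat on lysoPAF with ONO. The most abundant genes of the family lay in both classes.

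The share of all reads on members was highest in roots given ONO. It was 0.487 ± 0.0182% in lpcat on control medium, 0.545 ± 0.0263% on lysoPAF and 0.556 ± 0.0213% on lysoPAF with ONO (SD, n = 3). In WT the same shares were 0.473 ± 0.0118%, 0.488 ± 0.031% and 0.636 ± 0.0222% (SD, n = 3). By class the picture was as follows. The phi class took 0.379 ± 0.00955% of reads in lpcat and 0.475 ± 0.0257% in WT on lysoPAF with ONO, against 0.331% and 0.318% on lysoPAF. The tau class was at its highest mean in lpcat on lysoPAF, at 0.214% of reads, against 0.170% in WT on lysoPAF. These shares are descriptions and were not tested.

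**Figure D1:**
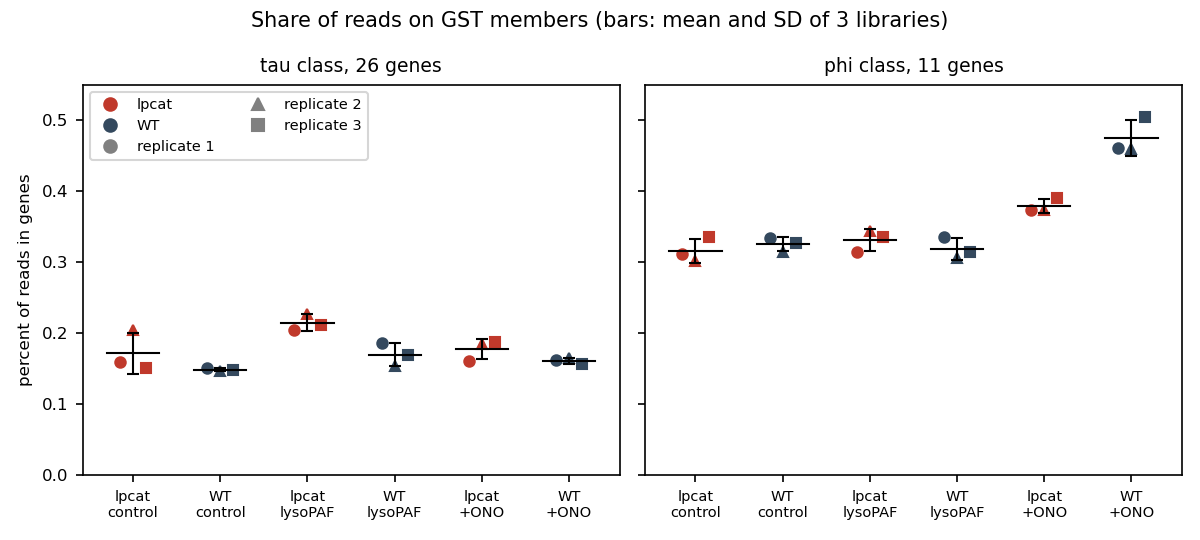
Percent of reads in genes that fell on the 26 tau (left) and 11 phi (right) members with a row, by group of genotype and medium; points are libraries, bars the mean and SD of 3 libraries. The phi share stands highest in WT on lysoPAF with ONO (0.475%), and the tau share in lpcat on lysoPAF (0.214%).

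In roots given ONO with lysoPAF, 6 members were higher than on lysoPAF alone in lpcat and the same 6 in WT. They were the phi genes GSTF2, GSTF3, GSTF6 and GSTF7 and the tau genes GSTU10 and GSTU12. These 6 of 37 compare with 3.55% of all tested genes called higher in lpcat and 3.72% in WT. On the lower side 4 members were called in lpcat (2.51% of all tested genes) and 1 in WT (1.77%). The lpcat and WT comparisons share no library, but both took the spread of each gene from the same fit of all 18 libraries. Their p-values are therefore not independent. Of the root markers, CASP1 was lower with ONO in lpcat (-0.33) and COBL9 higher in WT (0.42), with a called genotype by ONO interaction for COBL9 (-0.55, limma adjusted p = 0.0486), and their part in these results was not tested.

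GSTF6 (AT1G02930), which takes part in camalexin synthesis, and its tandem neighbour GSTF7 (AT1G02920) are 93.3% identical as proteins. The RefSeq promoter window of GSTF7 (assembly TAIR10.1, chromosome 1, minus strand) is shown because this gene had the smallest limma adjusted p of the members with ONO in both genotypes. It runs from 250 bases before the annotated start to 50 bases after it, 5′ to 3′, at chr1:659931-660230, with TTGAC or its reverse complement in capitals.
GSTF7: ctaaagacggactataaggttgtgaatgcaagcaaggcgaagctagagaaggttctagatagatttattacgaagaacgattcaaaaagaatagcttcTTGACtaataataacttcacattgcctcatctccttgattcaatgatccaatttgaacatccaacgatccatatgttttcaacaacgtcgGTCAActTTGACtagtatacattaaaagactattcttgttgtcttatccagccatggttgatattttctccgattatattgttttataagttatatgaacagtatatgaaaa

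TTGAC stood at -152, -62 (other strand) and -55 from the start of GSTF7. Among members, only GSTF6 and GSTF7 shared any exact stretch of transcript as long as a read, 1.473% of the stretches of GSTF6 and 1.438% of those of GSTF7.

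GSTF7 had 3848, 5384 and 5747 normalized counts in lpcat on lysoPAF with ONO, against 1086, 1223 and 1403 on lysoPAF. In WT the values were 8871, 8865 and 9506 normalized counts on lysoPAF with ONO, against 1550, 1407 and 1491 on lysoPAF. The groups were far apart in both genotypes, and the WT libraries with ONO lay above all lpcat libraries. The log2 fold change was 2.00 in lpcat (SE 0.12, limma adjusted p = 7.25e-09, 4.03 times by group means) and 2.61 in WT (SE 0.12, limma adjusted p = 4.95e-11, 6.12 times). GSTF6 had 1941, 2743 and 2751 normalized counts in lpcat on lysoPAF with ONO, against 677, 782 and 821 on lysoPAF. In WT it had 3781, 4040 and 4619 normalized counts on lysoPAF with ONO, against 708, 606 and 675 on lysoPAF. As for GSTF7, WT with ONO was highest and lpcat with ONO next. The log2 fold change was 1.69 in lpcat (SE 0.16, limma adjusted p = 1.99e-06) and 2.64 in WT (SE 0.16, limma adjusted p = 1.98e-09).

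GSTF3 (AT2G02930) and GSTF2 (AT4G02520), whose protein binds camalexin and other indoles, are also close copies, with 92.45% identity. Per kb of transcript, the mean over all libraries was 73.5 normalized counts for GSTF3, against 3922 for GSTF2. GSTF3 had 79.7, 121 and 144 normalized counts in lpcat on lysoPAF with ONO, against 20.2, 19.1 and 24.6 on lysoPAF, and in WT 224, 220 and 327, against 20.2, 26.5 and 28.4. Its log2 fold change was 2.34 in lpcat (SE 0.29, limma adjusted p = 5.98e-05) and 3.30 in WT (SE 0.29, limma adjusted p = 5.1e-07, 10.3 times by group means), in both the largest among members called with ONO. GSTF2 had 5892, 6718 and 6816 normalized counts in lpcat on lysoPAF with ONO, against 2898, 2578 and 2645 on lysoPAF. In WT it had 8937, 8754 and 12057, against 4315, 4555 and 4660. Its log2 fold change was 1.26 in lpcat (SE 0.27, limma adjusted p = 0.00843) and 1.12 in WT (SE 0.27, limma adjusted p = 0.0165). On control medium GSTF2 had 6061, 2148 and 7216 normalized counts in lpcat and 5677, 5546 and 6387 in WT, above the lysoPAF libraries of the same genotype in all but lpcat control replicate 2.

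The tau genes GSTU10 (AT1G74590) and GSTU12 (AT1G69920) share only 28.9% of their residues, yet both rose with ONO. GSTU10 had 268, 290 and 347 normalized counts in lpcat on lysoPAF with ONO, against 136, 127 and 131 on lysoPAF, and in WT 312, 322 and 302, against 142, 114 and 108. Its log2 fold change was 1.18 in lpcat (limma adjusted p = 4.91e-05) and 1.36 in WT (limma adjusted p = 4.6e-06). GSTU12 had 56.6, 103 and 95.3 normalized counts in lpcat on lysoPAF with ONO, against 41.3, 27.2 and 17.9 on lysoPAF, and in WT 87.2, 104 and 79.1, against 8.4, 22.7 and 15.8. Its log2 fold change was 1.56 in lpcat (limma adjusted p = 0.0277) and 2.55 in WT (limma adjusted p = 0.000638). GSTU11, next to GSTU12, stayed between 1.68 and 13.2 normalized counts in all libraries on lysoPAF with or without ONO, and was not called.

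**Figure D2:**
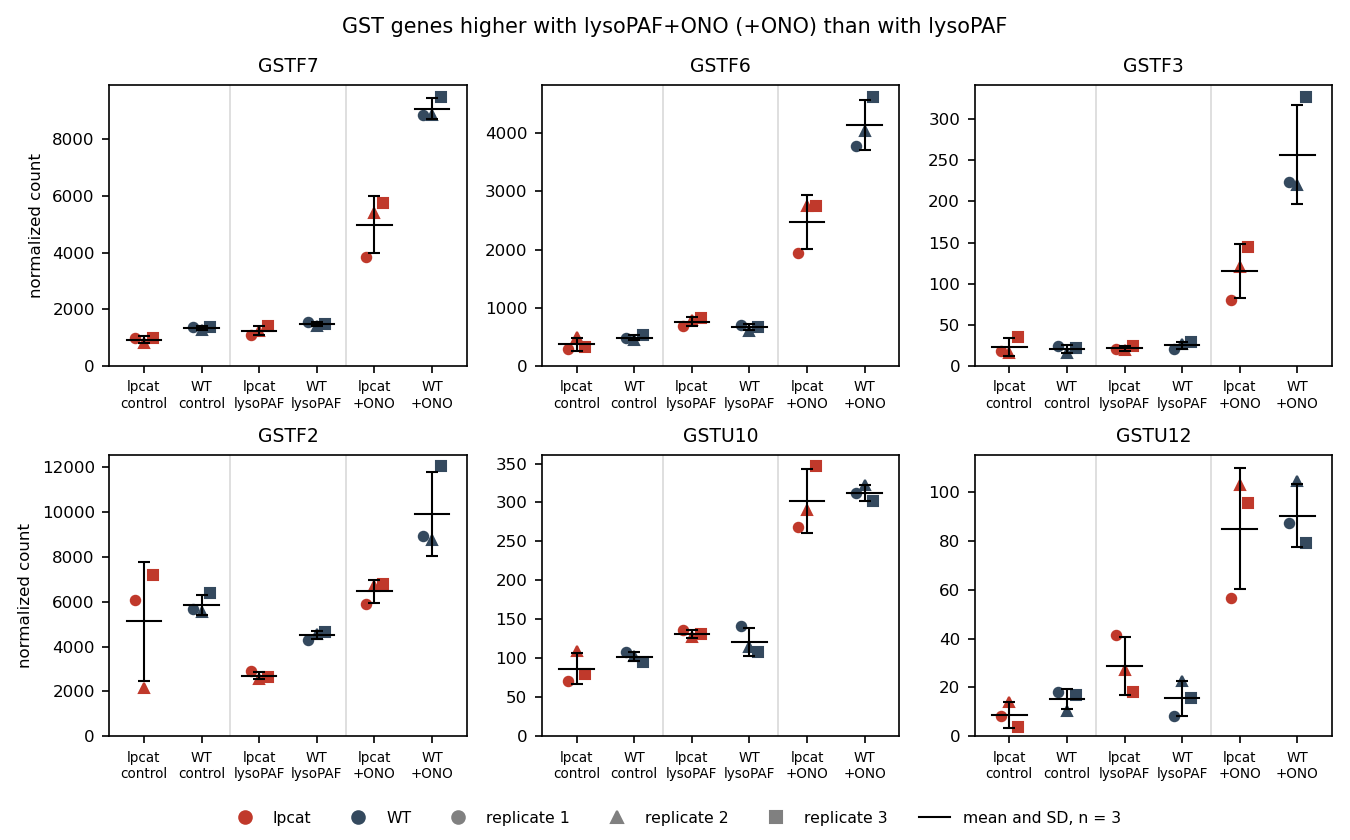
Normalized counts of the 6 members higher with lysoPAF and ONO (+ONO) than with lysoPAF, in lpcat and WT on each medium; points are libraries, bars the mean and SD of 3 libraries, and each panel has its own linear axis from 0. GSTF7 reached 3848 to 5747 in lpcat and 8865 to 9506 in WT with ONO, above all libraries without it.

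The members lower with ONO were smaller in change. In lpcat they were GSTU22 (122, 123 and 125 normalized counts on lysoPAF with ONO, against 251, 283 and 297 on lysoPAF), GSTU8, GSTF8 and GSTF10. The log2 fold changes were -1.16 for GSTU22 (limma adjusted p = 0.0424), -0.75 for GSTU8 (0.0436), -0.56 for GSTF8 (0.00943) and -0.35 for GSTF10 (0.0372). GSTF8, a much used reporter of salicylic acid and stress responses, had 4603, 3867 and 4465 normalized counts in lpcat with ONO, against 5570, 6354 and 7176 on lysoPAF. GSTU8 had 1383, 1695 and 1759, against 2189, 3061 and 2932, and GSTF10 had 6469, 6717 and 6988, against 8175, 9272 and 8329. In WT the lower member was GSTU18 (20.6, 26.3 and 18.3 normalized counts with ONO, against 57.1, 38.8 and 41 on lysoPAF, log2 fold change -1.03, limma adjusted p = 0.0131), whose annotated model overlaps that of GSTU17, so the origin of reads in the overlap is uncertain. Summed over members, lpcat with ONO stood 2992 normalized counts above lpcat on lysoPAF, with GSTF2 (3768) and GSTF7 (3756) higher and GSTF8 (-2055), GSTF10 (-1868) and GSTU19 (-1799) lower by group means. In WT the sum was 17868 normalized counts higher, of which GSTF7 gave 7598, GSTF2 5406 and GSTF6 3484.

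The calls of GSTU10, GSTF3, GSTF6 and GSTF7 in both genotypes, of GSTF2 in lpcat and of GSTU12 in WT were kept when any of the 6 compared libraries was left out. Calls ended for GSTU22 and GSTF10 in lpcat without any 1 of the 6 libraries (limma adjusted p up to 0.135 and 0.165), for GSTU8 without any but lpcat lysoPAF replicate 1 (up to 0.169), for GSTU12 in lpcat without lpcat lysoPAF replicate 2 or 3 or lpcat lysoPAF+ONO replicate 2 or 3 (up to 0.139), for GSTF8 without lpcat lysoPAF replicate 3 or lpcat lysoPAF+ONO replicate 2 (up to 0.0673), for GSTF2 in WT without any WT lysoPAF library or WT lysoPAF+ONO replicate 3 (up to 0.0781), and for GSTU18 without WT lysoPAF replicate 1 or WT lysoPAF+ONO replicate 1 or 3 (up to 0.0897).

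On lysoPAF, lpcat roots had 8 members higher and 1 lower than WT, of 37, where 6.56% of all tested genes were higher and 4.63% lower. Of the 8, 7 belong to the tau class: GSTU4, GSTU5, GSTU8, GSTU20, GSTU22, GSTU24 and GSTU25. GSTF8 was the phi gene, and GSTU27 the gene that was lower. Most members leaned the same way, with 29 members at a positive and 8 at a negative log2 fold change and a median of 0.32, against 0.0028 over all tested genes. At an unadjusted p under 0.05 stood 22 of 37 members, 17 of them higher, against 24.8% of all tested genes in either direction. COBL9, a root hair marker, was also higher in lpcat (812 to 849 normalized counts, against 589 to 667 in WT; limma adjusted p = 0.0126), and its part in these results was not tested.

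The promoter windows of GSTU22 (AT1G78340, chr1:29473954-29474253, minus strand) and GSTU25 (AT1G17180, chr1:5871774-5872073, plus strand) are shown because both genes were called here and both carry TGACG, in capitals, at the same distance of -87 from the start. They run 5′ to 3′ and come from RefSeq, assembly TAIR10.1, like the window of GSTF7.
GSTU22: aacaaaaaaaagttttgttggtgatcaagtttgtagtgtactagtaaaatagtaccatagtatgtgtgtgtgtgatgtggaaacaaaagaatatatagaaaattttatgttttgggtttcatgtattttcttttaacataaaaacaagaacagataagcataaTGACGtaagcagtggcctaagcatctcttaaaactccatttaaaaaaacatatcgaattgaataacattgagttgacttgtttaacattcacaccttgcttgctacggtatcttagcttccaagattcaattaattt
GSTU25: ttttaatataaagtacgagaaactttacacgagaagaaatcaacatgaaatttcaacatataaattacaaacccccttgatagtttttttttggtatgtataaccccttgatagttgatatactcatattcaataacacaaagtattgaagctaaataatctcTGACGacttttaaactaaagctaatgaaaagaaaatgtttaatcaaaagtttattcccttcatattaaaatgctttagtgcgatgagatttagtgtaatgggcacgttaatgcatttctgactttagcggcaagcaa

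GSTU22 had 251, 283 and 297 normalized counts in lpcat on lysoPAF, against 93.3, 82.3 and 87.3 in WT on lysoPAF. The groups did not overlap, and the log2 fold change was 1.65 (SE 0.33, limma adjusted p = 0.00321). GSTU25, whose enzyme is known to conjugate the explosive TNT, had 1655, 1888 and 1741 normalized counts in lpcat, against 776, 674 and 741 in WT (log2 fold change 1.27, SE 0.24, limma adjusted p = 0.0017). GSTU24 (AT1G17170), its tandem neighbour with the same known activity, had 800, 1164 and 1046 in lpcat, against 652, 600 and 657 in WT (log2 fold change 0.64, limma adjusted p = 0.0382). The 3 libraries of lpcat were all above those of WT for each of these genes.

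GSTU4 (AT2G29460) and GSTU5 (AT2G29450) lie in the tandem cluster of GSTU1 to GSTU7 on chromosome 2. GSTU5 had 103, 130 and 110 normalized counts in lpcat on lysoPAF, against 41.2, 33.1 and 27.3 in WT on lysoPAF (log2 fold change 1.74, SE 0.22, limma adjusted p = 7.88e-05). GSTU4 had 62.4, 73.5 and 63.3 in lpcat, against 15.1, 26.5 and 20 in WT (log2 fold change 1.68, SE 0.41, limma adjusted p = 0.0114). Not called in this cluster were, among others, GSTU3 with 17.6, 10.1 and 8.5 normalized counts in lpcat, against 0, 2.84 and 8.41 in WT (log2 fold change 1.92, limma adjusted p = 0.0959), and GSTU6 at 0.53 on the same scale (limma adjusted p = 0.0683).

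GSTU20 (AT1G78370), known as a partner of the jasmonate-conjugating enzyme JAR1, had 728, 573 and 660 normalized counts in lpcat on lysoPAF, against 451, 383 and 427 in WT on lysoPAF (log2 fold change 0.63, SE 0.11, limma adjusted p = 0.000812). GSTU8 (AT3G09270) had 2189, 3061 and 2932, against 1672, 1480 and 1558 (log2 fold change 0.78, limma adjusted p = 0.0229), and GSTF8 (AT2G47730) 5570, 6354 and 7176, against 4523, 4943 and 5141 (log2 fold change 0.38, limma adjusted p = 0.0481). GSTU27 (AT3G43800) went the other way, with 1070, 953 and 850 normalized counts in lpcat, against 1629, 1437 and 1435 in WT (log2 fold change -0.65, SE 0.12, limma adjusted p = 0.00125). GSTF14 (AT1G49860) had 53.6, 45.3 and 53.8 in lpcat, against 89.9, 165 and 134 in WT, with no overlap, but was not called (log2 fold change -1.29, SE 0.55, limma adjusted p = 0.143).

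**Figure D3:**
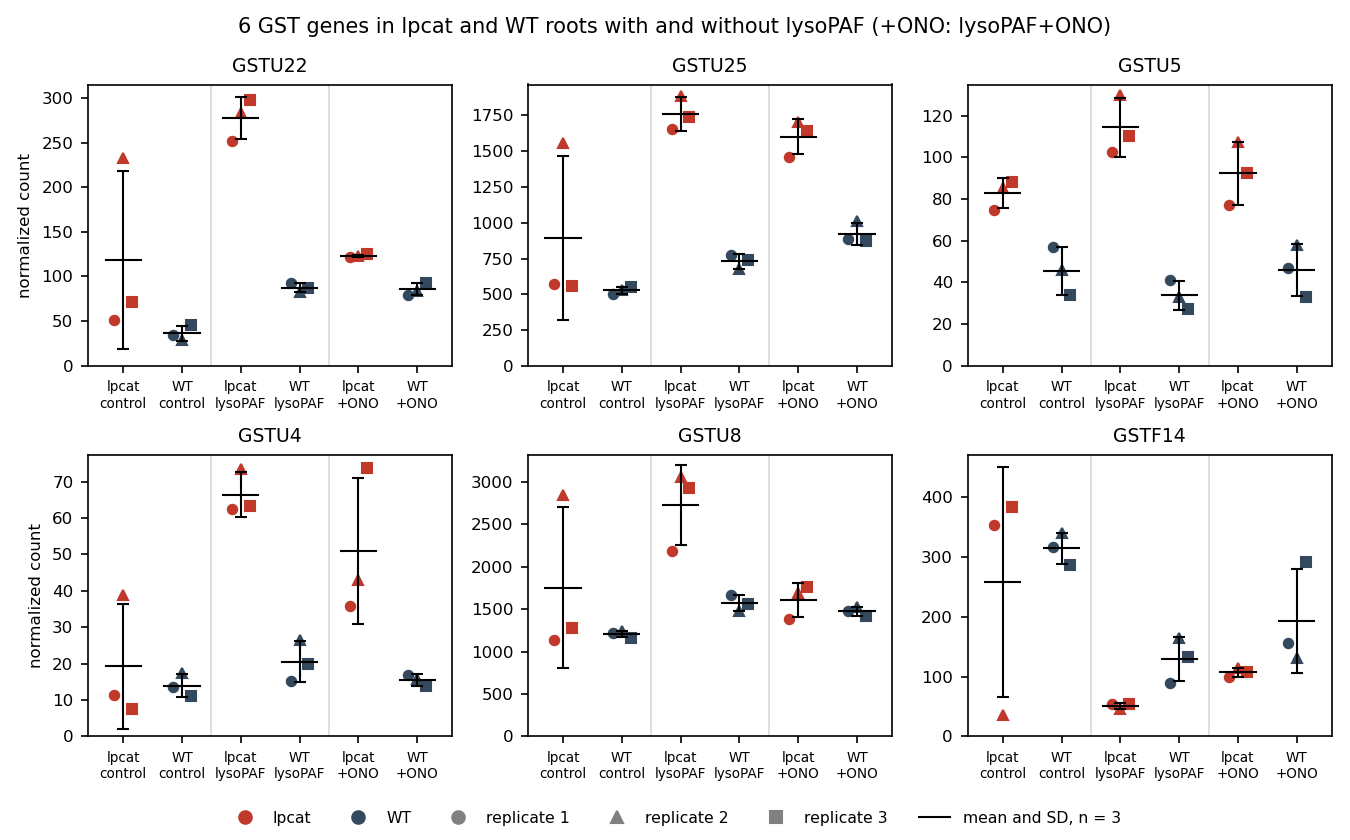
Normalized counts of GSTU22, GSTU25, GSTU5, GSTU4, GSTU8 and GSTF14 in lpcat and WT on each medium (+ONO: lysoPAF with ONO); points are libraries, bars the mean and SD of 3 libraries, and each panel has its own linear axis from 0. On lysoPAF the lpcat libraries lie above those of WT in 5 panels and below them for GSTF14; lpcat control replicate 2 (triangle) lies far from the other lpcat controls in all panels but that of GSTU5.

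The calls of GSTU5, GSTU20, GSTU22, GSTU25 and GSTU27 were kept without any 1 of the 6 compared libraries. GSTU4 lost its call when replicate 1 of WT or replicate 2 of lpcat on lysoPAF was left out (limma adjusted p = 0.06 and 0.0518), and GSTU8, GSTU24 and GSTF8 without any 1 of the 6 but lpcat lysoPAF replicate 1 (up to 0.105, 0.171 and 0.218). Without lpcat control replicate 2, which enters here through the shared spread only, 13 members were higher and 3 lower, against 9.34% and 7.66% of all tested genes, and GSTF14 (limma adjusted p = 8.91e-05) and GSTF2 (log2 fold change -0.74, limma adjusted p = 1.46e-05) were then among the lower ones.

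On control medium 2 members were higher in lpcat than in WT (2.24% of all tested genes) and 1 was lower (0.53%). Of 5 root markers 2 were higher too, the endodermal CASP1 (1507 to 1555 normalized counts, against 967 to 1068 in WT) and COBL9 (762 to 898, against 495 to 605), and their part in the member results was not tested. GSTU5 had 74.6, 85.4 and 88.3 normalized counts in lpcat, against 57, 46 and 33.9 in WT (log2 fold change 0.87, SE 0.22, limma adjusted p = 0.039). GSTU22 had 50.8, 233 and 70.9 in lpcat, against 34, 28.8 and 45.9 in WT (log2 fold change 1.38, SE 0.33, limma adjusted p = 0.0282). Leaving out lpcat control replicate 2 gave 0.74 (limma adjusted p = 0.0127). GSTF7 had 994, 791 and 993 in lpcat, against 1381, 1254 and 1361 in WT (log2 fold change -0.53, SE 0.12, limma adjusted p = 0.0252). All 3 pairs of groups were free of overlap, as were those of 9 of the 37 members in this comparison. The share over all tested genes was not computed, so this adds nothing to the calls. GSTU5 lost its call without WT control replicate 2 or 3 or lpcat control replicate 1 or 3 (limma adjusted p up to 0.175), GSTU22 without WT control replicate 1 or 2 (up to 0.12), and GSTF7 without any 1 WT control library (up to 0.088). With lpcat control replicate 2 left out, the counts were 4 higher and 4 lower, against 4.61% and 2.45% of all tested genes. In that fit 1 of 8 shoot photosynthesis markers was higher in lpcat. Their median log2 fold change was 0.94, against -0.057 with all libraries, and their part in the result was not tested.

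On lysoPAF with ONO 4 members were higher in lpcat than in WT (2.13% of all tested genes) and 3 were lower (1.14%). The higher ones were tau genes and the lower ones phi genes. GSTU5 had 77.3, 108 and 92.4 normalized counts in lpcat, against 46.9, 57.9 and 33.2 in WT (log2 fold change 1.01, limma adjusted p = 0.0162), and GSTU20 670, 642 and 632, against 400, 441 and 559 (log2 fold change 0.49, limma adjusted p = 0.0153). GSTU4 had 35.9, 43 and 73.7, against 16.9, 15.8 and 13.7 (log2 fold change 1.59, limma adjusted p = 0.0371), and GSTU18 41.4, 34.6 and 48.2, against 20.6, 26.3 and 18.3 (log2 fold change 0.90, limma adjusted p = 0.0416). The lower ones were GSTF7 (log2 fold change -0.88, SE 0.12, limma adjusted p = 0.000423), GSTF6 (-0.76, SE 0.16, 0.0124) and GSTF3 (-1.17, SE 0.29, 0.0292), with the values given for these media above. GSTU25 stood at 1463, 1705 and 1640 in lpcat, against 884, 1012 and 874 in WT, and was not called (log2 fold change 0.80, limma adjusted p = 0.0681).

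GSTF7 kept that call without any 1 of the 6 libraries. GSTU4 and GSTU18 lost theirs without any 1 of them (limma adjusted p up to 0.143 and 0.136), GSTF3 without any but lpcat lysoPAF+ONO replicate 3 (up to 0.133), GSTU20 without WT or lpcat lysoPAF+ONO replicate 1 or 2 (up to 0.101), GSTU5 without WT lysoPAF+ONO replicate 1 or 3 or lpcat lysoPAF+ONO replicate 2 (up to 0.106), and GSTF6 without WT lysoPAF+ONO replicate 3 (0.052) or lpcat lysoPAF+ONO replicate 1 (0.0694). When lpcat control replicate 2 was left out, 8 members were higher and 5 lower, against 4.71% and 3.98% of all tested genes. In that fit 2 of 8 shoot photosynthesis markers were also higher in lpcat (median log2 fold change 0.51), and their part in the result was not tested.

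LysoPAF against control medium gave 7 members higher in lpcat (1.94% of all tested genes) and 1 lower (1.57%). In WT 2 were higher (1.58%) and 1 lower (0.901%). GSTU22 and GSTU2 were higher in both genotypes. GSTU22 had 251, 283 and 297 normalized counts in lpcat on lysoPAF, against 50.8, 233 and 70.9 on control medium (log2 fold change 1.54, limma adjusted p = 0.0229), and in WT 93.3, 82.3 and 87.3, against 34, 28.8 and 45.9 (log2 fold change 1.27, limma adjusted p = 0.0467). GSTU2 had 575, 527 and 484 in lpcat, against 349, 467 and 351 (log2 fold change 0.45, limma adjusted p = 0.0355), and in WT 466, 410 and 425, against 343, 267 and 279 (log2 fold change 0.55, limma adjusted p = 0.0149). GSTU1, to which no row was matched, is annotated 19 bases from GSTU2 and is 85.55% identical to it in coding sequence, so the row of GSTU2 could hold reads of both, which was not tested.

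The other members higher in lpcat on lysoPAF than on control medium were GSTU4, GSTU10, GSTU12, GSTU25 and GSTF6. GSTF6 had 677, 782 and 821 normalized counts on lysoPAF, against 283, 492 and 328 on control medium (log2 fold change 1.08, limma adjusted p = 0.00733). GSTU25 had 1655, 1888 and 1741, against 569, 1559 and 557 (log2 fold change 1.15, limma adjusted p = 0.0189), and GSTU4 62.4, 73.5 and 63.3, against 11.4, 38.9 and 7.47 (log2 fold change 2.06, limma adjusted p = 0.017). In each of these genes the high control library was replicate 2. GSTU12 (log2 fold change 1.69, limma adjusted p = 0.03) and GSTU10 (0.62, 0.0262) stood at 8.29, 14.2 and 3.73 and at 71.5, 109 and 79.6 normalized counts in the lpcat controls. GSTU27 was lower, with 1070, 953 and 850 on lysoPAF, against 1407, 1160 and 1470 on control medium (log2 fold change -0.49, limma adjusted p = 0.0279). In WT the lower member was GSTU20, with 451, 383 and 427, against 555, 544 and 583 (log2 fold change -0.42, limma adjusted p = 0.0415).

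Every one of the 8 calls in lpcat ended when lpcat control replicate 1 or 3 was left out (limma adjusted p from 0.0574 to 0.228). Single lpcat lysoPAF libraries ended them too, replicate 3 for all 8, replicate 2 for all but GSTF6 and replicate 1 for GSTU2, GSTU10 and GSTU12. Without lpcat control replicate 2, 14 members were higher and 3 lower, against 8.86% and 9.8% of all tested genes. In that fit 5 of 8 shoot photosynthesis markers were lower on lysoPAF (median log2 fold change -1.44), with sums of 885 to 2791 normalized counts, against 4468 and 4945 in the controls that stayed, and their part in the result was not tested. The log2 fold changes then were 2.71 for GSTU4, 2.19 for GSTU22, 1.64 for GSTU25, -1.29 for GSTF2 (limma adjusted p = 1.41e-08) and -2.83 for GSTF14 (limma adjusted p = 3.54e-09). In WT, GSTU22 and GSTU20 lost their calls without any 1 of the 6 compared libraries (up to 0.163 for both), and GSTU2 without WT control replicate 2 or 3 or WT lysoPAF replicate 1 (up to 0.0848). In the fit without lpcat control replicate 2, 6 members were higher and 3 lower in WT, against 4.05% and 2.79% of all tested genes.

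For lpcat control replicate 2 itself, 30 of the 37 members lay outside the range of the other lpcat control libraries, and 30 were nearer to the mean of lpcat on lysoPAF than to that of the other lpcat controls. Over all tested genes the shares were 73.8% outside that range and 66.3% nearer to lysoPAF. On 18 members it fell inside the range of the 3 lpcat lysoPAF libraries, as did 46.9% of all tested genes. GSTF14 had 36.1 normalized counts in it, against 353 and 383 in the other lpcat controls, and GSTF2 2148, against 6061 and 7216. GSTU25 had 1559, against 569 and 557, and GSTU8 2843, against 1133 and 1274. Members that were unlike lysoPAF-treated roots in this library also existed, such as GSTU5 with 85.4, against 74.6 and 88.3. Its label was kept, and whether its place reflects the culture or the handling was not tested.

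**Figure D4:**
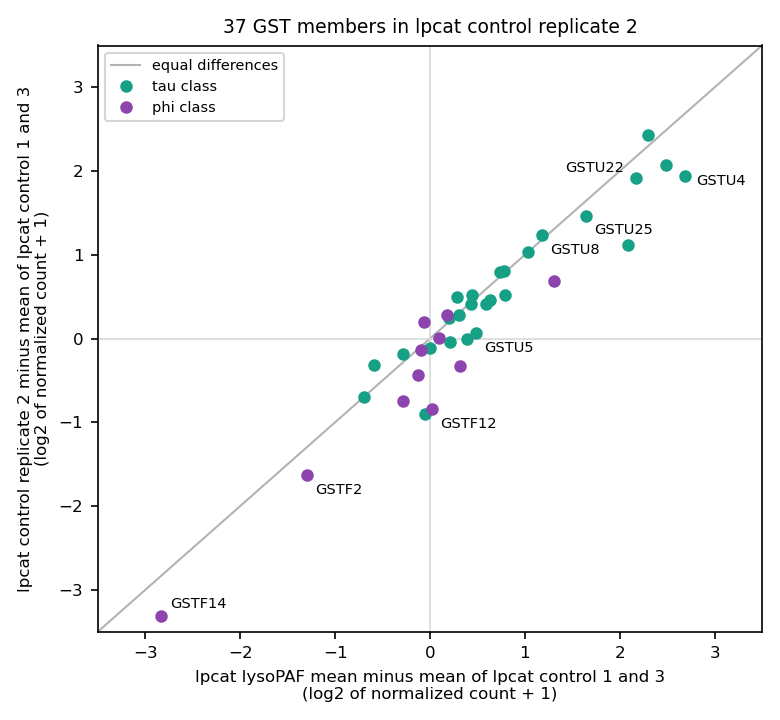
Each of the 37 members as the mean of lpcat on lysoPAF (x axis) and as lpcat control replicate 2 (y axis), both as a difference of log2(normalized count + 1) from the mean of lpcat control replicates 1 and 3, which both axes therefore share; the line marks equal differences. Of the members, 30 lay nearer to the lysoPAF mean, and GSTF14 and GSTF2 lie at the lower left, GSTU4 and GSTU22 at the upper right.

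The test of whether the genotypes differed in their response was made as an interaction. For lysoPAF no member was called by limma, edgeR with TMM or RLE factors or DESeq2, where 0.0547% of all tested genes were called by limma in either direction. At an unadjusted limma p under 0.05 stood 7 of 37 members, against 11.5% of all tested genes. Without lpcat control replicate 2 the same limma test called 12 members, 9 higher and 3 lower, where 9.49% of all tested genes were called. Among these GSTU25 had an interaction of 1.18 (limma adjusted p = 3.155e-07), GSTU4 of 2.19 (limma adjusted p = 0.00132), GSTF2 of -0.91 (limma adjusted p = 0.000369) and GSTF14 of -1.52 (limma adjusted p = 0.00253), all on the log2 scale. This interaction thus turned on the single library. In the fit without it, 1 of 8 shoot photosynthesis markers and 1 of 5 root markers were also called, both as lower. Their part in the result was not tested.

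For the step from lysoPAF to lysoPAF with ONO, GSTF6 was the 1 member called, of 1.26% of all tested genes in either direction. Its rise was smaller in lpcat than in WT by -0.95 on the log2 scale (SE 0.22, limma adjusted p = 0.0423). GSTF7 had -0.62 (limma adjusted p = 0.0902) and GSTF3 -0.95 (limma adjusted p = 0.282), neither of them called. The call of GSTF6 ended without any 1 of the 12 libraries but lpcat lysoPAF replicate 1 and lpcat lysoPAF+ONO replicate 3 (limma adjusted p up to 0.125). Without lpcat control replicate 2, which is not part of the comparison, 7 members were called, 6 lower and 1 higher, against 4.96% of all tested genes, with GSTF6 at a limma adjusted p of 0.000971.

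Of the 37 tested members, 18 were called in at least 1 of these comparisons and 19 in none. The share of all tested genes called in at least 1 comparison was not computed, so these counts have no background beside them. GSTF9, the most abundant per kb, was among the 19 and lay between 10741 and 14872 normalized counts in all 18 libraries, as was GSTU19 between 3622 and 7388. GSTU13, known for its part in indole-dependent immunity, lay between 2623 and 4264. GSTF13 came near the threshold on control medium, where lpcat had 226 ± 18.2 and WT 304 ± 27.9 normalized counts (SD, n = 3 each). Its log2 fold change there was -0.42 (limma adjusted p = 0.0536). Some tandem neighbours were called together, such as GSTF6 and GSTF7 with ONO or GSTU24 and GSTU25 in lpcat against WT on lysoPAF. Others were not. GSTF10 was lower with ONO in lpcat while its neighbour GSTF9 was not called, and the difference between them was not tested. GSTU22 was called in 5 comparisons, while GSTU21, in the same cluster, had too few reads to compare. Proteins of members were 26.02 to 93.3% identical within a class, with a median of 38.67%, and 14.53 to 26.81% between classes.

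**Figure D5:**
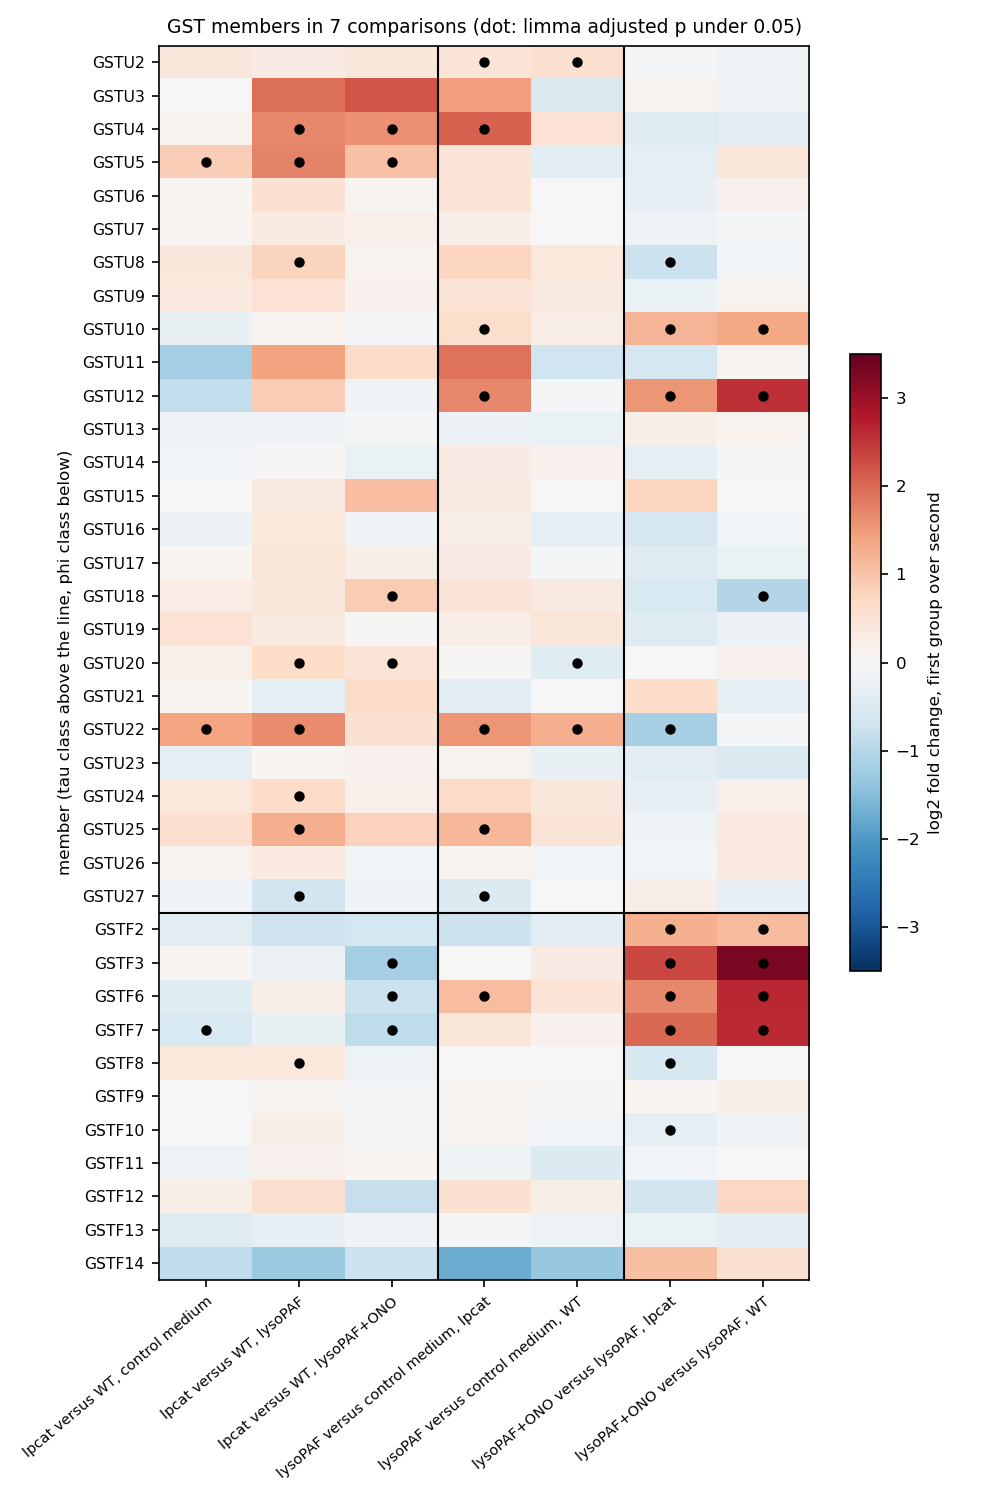
Log2 fold changes of the 37 members (rows, tau above the line and phi below) in 7 comparisons (columns), the first-named group over the second; red is higher, blue lower, and a dot marks a limma adjusted p under 0.05. The dots under lysoPAF in lpcat against WT fall mostly on tau genes (7 of 8 that were higher), and those of ONO on GSTU10, GSTU12, GSTF2, GSTF3, GSTF6 and GSTF7 in both genotypes.

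Promoter windows of all 39 members were searched on both strands for 4 motifs, from 250 bases before the annotated start to 50 after it. TGACG was found in 17 of 39 windows (43.59%), against 23.07% of 27443 promoters of all genes, and TTGAC, which can overlap it in TTGACG, in 24 (61.54%), against 50.48%. CACGTG, the G-box, was in 3 windows (7.692%, against 7.678%), and GNATATNC, bound by the phosphate regulator PHR1, in 1 (2.564%, against 6.253%). Of the 8 members higher in lpcat on lysoPAF, 6 had TGACG and 5 TTGAC. Of the 6 higher with ONO, 1 had TGACG and 5 had TTGAC, and of the 4 lower with ONO in lpcat 3 had TGACG. These are matches of letters in a window and were not tested.

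Genes around the family were followed in lists. Among 12 tested GSTs of other classes or outside the set, GSTF5 was higher with ONO in lpcat (log2 fold change 1.76, limma adjusted p = 0.0291) and in WT (1.83, 0.0232), but it had at most 4.58 normalized counts and was listed at 0 in all 6 lysoPAF libraries. DHAR1, a dehydroascorbate reductase, was lower with ONO in WT (log2 fold change -0.47, limma adjusted p = 0.00141), and DHAR2 in lpcat (-0.48, 0.00275). Of 13 genes of glutathione synthesis, recycling and turnover, 3 were higher with ONO in WT (3.72% of all tested genes) and 0 in lpcat (3.55%). Among those higher in WT was GSH1, the first enzyme of glutathione synthesis (log2 fold change 0.32, limma adjusted p = 0.0495). GGCT2;1, which breaks down glutathione, was higher in lpcat than in WT on lysoPAF (1.27, 0.0167), while GGCT2;2 of the same family was lower (-0.37, 0.0359). Of 3 vacuolar ABCC transporters 2 were higher in lpcat than in WT on lysoPAF (6.56% of all tested genes), ABCC2 and ABCC3 (both 0.31). ABCC3 was also higher with ONO in WT (0.46, 0.00609).

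Among 15 tested xenobiotic and oxylipin response genes outside the GSTs, 5 were higher in lpcat than in WT on control medium. The same number was higher on lysoPAF, where UGT73B1 was lower (-0.50), and 3 on lysoPAF with ONO. Of all tested genes 2.24%, 6.56% and 2.13% were higher on these media. UGT73B3, a glucosyltransferase, had log2 fold changes of 0.76, 0.42 and 0.52 on them, and UGT73B2 of 0.83, 0.77 and 0.70. LysoPAF against control medium gave 4 of the 15 higher in WT (1.58% of all tested genes) and 3 in lpcat (1.94%). UGT73B2 had 699, 670 and 690 normalized counts in WT on lysoPAF, against 434, 420 and 409 on control medium. With ONO in WT the transporter DTX1 was higher (1.79, limma adjusted p = 0.00936) and OPR1, an oxophytodienoate reductase, lower (-0.52, limma adjusted p = 0.00218). The 3 clade II factors TGA2, TGA5 and TGA6 were called in no comparison by limma, and 1 of their values, that of TGA5 for lysoPAF in WT, had an unadjusted p under 0.05.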

How the data were processed

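RNA from roots was sequenced as read pairs from 18 TruSeq libraries, grouped by their labels. The submitters' processing notes name STAR 2.4.0j, StringTie 1.0.3, HTSeq 0.6.0 and DESeq2 1.12.4, with the TAIR10 build. The deposited signal is a normalized count: the authors divided the reads of each gene by a size factor per library. The step between values, 0.609 to 1.24, gave back whole reads for all 400470 values above 0 (100%, within 0.001 of a read). For the 9 members with more than 1 row, the row with the highest mean was taken, and no row set aside had a mean above 15.7.

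Tests took genes with 5 or more reads summed over the libraries and used limma 3.58.1 (R 4.3.3) on log2(normalized count + 1), with 1 coefficient per group, a variance trend and Benjamini-Hochberg adjustment over 23760 genes. Standard errors are limma's moderated ones. Members called in any comparison are given by library, with full statistics for those with the 8 smallest adjusted p of a comparison, and the rest by range. From other lists up to 4 called genes per comparison are named. The members and lists were chosen with earlier results of these data known. Alternatives were edgeR 4.0.16 with TMM or RLE factors and DESeq2 1.42.0 on the recovered reads, TMM scaling, other filters and pseudocounts (0.5 and 5), a replicate block, the compared libraries alone, the sum of rows per gene, a fold threshold and leaving out each library. EdgeR with TMM factors called 1527 genes higher and 1193 lower in lpcat than in WT on lysoPAF, and 890 higher and 684 lower with ONO in lpcat. The fits were also run on simulated counts with the same spread for every gene and no library that stood apart. Only genes with many reads were changed there. That run therefore does not cover a library such as lpcat control replicate 2 or members with few reads. Sequences and positions came from RefSeq (TAIR10.1), matched by gene identifier for all 39 members, and motifs and identities were computed in Python 3.11.15 with Biopython 1.88. Depth limits the members with few reads, such as GSTU15, GSTU21 and GSTF12.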

Additional observations from a re-analysis of the deposited data

Results flagged for a closer look

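GSTF6 was the 1 member of 37 called in the genotype by ONO interaction, where 1.26% of all tested genes were called in either direction. Its normalized counts were 1941, 2743 and 2751 in lpcat and 3781, 4040 and 4619 in WT on lysoPAF with ONO, against 677, 782 and 821 in lpcat and 708, 606 and 675 in WT on lysoPAF. The interaction was -0.95 on the log2 scale (SE 0.22, limma adjusted p = 0.0423), the rise being smaller in lpcat. All 3 lpcat libraries with ONO lay below all 3 WT libraries with ONO. Leaving out any of 10 of the 12 libraries ended the call, with limma adjusted p up to 0.125, the exceptions being lpcat lysoPAF replicate 1 and lpcat lysoPAF+ONO replicate 3, and so did testing without a filter on low values (0.061).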

How the results depend on the processing

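Of the 48 calls of members over all comparisons, none reversed its direction under any alternative, 16 were kept in every fit that left out 1 compared library, and 16 under every other alternative. The replicate block kept 48 of 48, TMM scaling, edgeR's filterByExpr and a pseudocount of 0.5 also 48, the sum of rows 47, edgeR with TMM or RLE factors and a pseudocount of 5 each 46, DESeq2 45, no filter 38, and the compared libraries alone or a fold threshold each 28. For lpcat against WT on control medium, 3 members were called, with 1 past the fold threshold, 5 by edgeR with RLE factors, 7 by DESeq2, 5 with the replicate block, 0 from the compared libraries alone and 0 to 8 with 1 library left out. For lpcat against WT on lysoPAF 9 were called, 4 past the fold threshold, 16 without lpcat control replicate 2 and 5 to 11 with 1 library left out. For lpcat against WT on lysoPAF with ONO 7 were called, 3 past the fold threshold, 4 from the compared libraries alone, 13 without lpcat control replicate 2 and 2 to 5 with 1 library left out. For lysoPAF in WT 3 were called, 1 past the fold threshold, 1 with no filter, 9 without lpcat control replicate 2 and 0 to 1 with 1 library left out. For lysoPAF in lpcat 8 were called, 5 past the fold threshold, 0 from the compared libraries alone and 0 to 17 with 1 library left out. For ONO, 7 were called in WT and 5 to 7 with 1 library left out, and 10 in lpcat and 5 to 8 with 1 library left out. The lysoPAF interaction gave 0 calls under every alternative except 12 without lpcat control replicate 2, and the ONO interaction 1, with 0 past the fold threshold, 3 by DESeq2, 0 with no filter, 7 from the compared libraries alone, 7 without lpcat control replicate 2 and 0 to 2 with 1 library left out. The compared libraries alone and the fits with a library left out hold fewer samples, and otherwise the cause was not tested. From the compared libraries alone, all 8 lysoPAF calls in lpcat had the same limma adjusted p of 0.47. Calls over all tested genes were counted only for the main fit, edgeR with TMM factors and the fit without lpcat control replicate 2. The other counts have no background, so a shift in members cannot be told from a shift in all genes. Correlations of same-numbered deviations from the group means ran between -0.0513 and 0.119. They cannot show whether same-numbered libraries were grown or handled together. Besides the count on control medium given above, a replicate block moved no count of calls by over 1.5 times. Depth limits members with few reads, such as GSTU15, listed at 0 in 14 libraries.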
